A study of Mus musculus with 2 samples.

Results

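The genes described here were named by symbol: the C-type lectin receptors Clec4a1, Clec4a2, Clec4a3, Clec4b1, Clec4d, Clec4e, Clec4n, Clec7a and Clec12a, and the mannose receptor Mrc1. Of the 10 members, 9 were found among the 27998 genes of both libraries, and Clec7a was not analysed here. The samples were 2 single-cell RNA libraries of CD45+ leukocytes sorted from subcutaneous MC38-GFP tumours, a mouse colon adenocarcinoma line, 1 from the responder and 1 from the non-responder group. All tumours were grown in C57BL/6 mice from 50000 injected cells, and both groups received the same anti-PD-1 antibody, 100 ug on days 12, 15, 18 and 22, a course the submitters call sub-optimal. The labels and protocols used here give no age, sex or number of mice for either library. With 1 library per group no difference had a replicate check, and response, mouse and library cannot be told apart.

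C-type lectin receptors are surface proteins of myeloid cells that bind sugars and lipids of microbes and of damaged cells. One set (Clec4d, also called MCL; Clec4e, Mincle; Clec4n, Dectin-2; Clec4b1, DCAR) signals through the adaptor chain Fcer1g, the kinase Syk and the adaptor Card9. Another set (Clec4a2, DCIR; Clec12a, MICL) carries an inhibitory motif in its tail that recruits phosphatases such as SHP-1, the product of Ptpn6, while Mrc1, or CD206, takes up mannosylated glycoproteins and is a usual marker of alternatively activated and resident macrophages.

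Summed over all macrophages of these tumours, the members split by position and in part by role. Macrophages of the responder library held more Clec4a1, Clec4a3, Clec4b1 and Clec12a, and less Clec4d, Clec4e, Clec4n and Mrc1, than those of the non-responder library. Clec4d was highest in Spp1-high cluster 8 of both libraries and Clec4e in cluster 11, a monocyte-like cluster of mixed makeup. With the libraries clustered apart, Clec4d of the responder library was highest in Arg1-high cells instead. In the responder library the Clec4e intervals of cluster 11 and Spp1-high cells overlapped. With equal weight to the 5 clusters that both libraries held, all 9 ratios were nearer to 0 and none was past 2-fold: Mrc1 was at -0.16 in place of -1.82, Clec4d at -0.06 in place of -1.05, and Clec4e at -0.96 in place of -1.79. The Clec4e value was below 0 in each of these clusters, with a counting interval that included 0 in clusters 2 and 6. The Mrc1 mean includes 1.93 in cluster 11, whose makeup differed between the libraries. Clusters 0, 9 and 7, which it leaves out, held 46.2%, 25.9% and 14.6% of the Mrc1 counts of non-responder macrophages.

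Members of the Clec4 group, 7 in all, lie in 1 stretch of mouse chromosome 6 (GRCm38, GENCODE M21), chr6:122921848-123289870, which is 368 kb long and holds 9 protein-coding genes. In order along the chromosome the members are Clec4a1 (chr6:122921848-122934619), Clec4a3 (chr6:122952515-122969875), Clec4b1 (chr6:123049962-123071555), Clec4a2 (chr6:123106428-123143999), Clec4n (chr6:123229843-123247021), Clec4d (chr6:123262111-123275265) and Clec4e (chr6:123281789-123289870). Clec4e alone is on the minus strand, so Clec4d and Clec4e face each other with their 3' ends. The other two coding genes there are Clec4a4 and Clec4b2. Clec12a (chr6:129342691-129365303) and Clec7a (chr6:129461591-129472779, minus strand, which that annotation types as a polymorphic pseudogene) lie farther along, and Mrc1 is at chr2:14229392-14332057.

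Reads were counted at 3' ends, so near-identical ends could be confused. Of the 50-base words in the last 500 bases of the annotated transcripts, 12.9% in Clec4b1 were also in Clec4a2, and 8.96% in Clec4a2 were also in Clec4a4 or Clec4b1. Clec4n shared 1.1% with the pseudogene Gm44147. The values of Clec4a2 and Clec4b1 are therefore less certain than those of the other members, of which Clec4a1, Clec4a3, Clec4d, Clec4e, Clec12a and Mrc1 shared none.

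RefSeq promoter sequences (GRCm38.p6) matched 9 of the 10 members. Windows of 250 bases before the start are shown for 3 of them: those of the neighbours Clec4e and Clec4d, whose levels ran alike across states, and that of Clec4b1, which was high in the Cxcl9-high state of the responder library. Each is written 5' to 3' on the gene's strand, and capitals mark motif matches.
Clec4e, chr6:123289872-123290121, minus strand: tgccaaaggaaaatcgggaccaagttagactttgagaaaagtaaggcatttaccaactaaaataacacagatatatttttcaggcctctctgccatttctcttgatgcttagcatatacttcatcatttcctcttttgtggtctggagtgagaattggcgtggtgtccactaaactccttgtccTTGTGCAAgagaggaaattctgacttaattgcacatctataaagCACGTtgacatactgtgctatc
Clec4d, chr6:123261857-123262106, plus strand: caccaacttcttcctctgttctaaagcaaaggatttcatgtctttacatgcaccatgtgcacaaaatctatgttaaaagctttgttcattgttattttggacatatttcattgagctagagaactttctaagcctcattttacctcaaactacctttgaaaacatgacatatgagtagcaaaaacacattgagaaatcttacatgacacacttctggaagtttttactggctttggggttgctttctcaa
Clec4b1, chr6:123049712-123049961, plus strand: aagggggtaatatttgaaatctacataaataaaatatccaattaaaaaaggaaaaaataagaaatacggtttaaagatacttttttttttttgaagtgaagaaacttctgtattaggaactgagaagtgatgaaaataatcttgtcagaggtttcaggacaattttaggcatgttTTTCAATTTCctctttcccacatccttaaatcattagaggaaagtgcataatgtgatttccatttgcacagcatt

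Both strands were searched for 7 motifs, and matches of different motifs did not overlap. The Clec4e window held the C/EBP letters TTGCNNAA at 66 to 59 bases before the start and the hypoxia response letters ACGTG at 22 to 18 bases, both on the opposite strand. Of 32851 mouse promoter windows of the same length, 9.56% held the C/EBP letters and 16.6% the hypoxia letters. The Clec4b1 window held a match of the interferon-stimulated response element at 75 to 66 bases on the opposite strand, as did 2.98% of all windows. None of the 7 was found in the Clec4d window. The other four were PU.1 (GAGGAAGT, 2.44% of windows), AP-1 (TGANTCA, 6.75%), the gamma-activated site (TTCNNNGAA, 7.02%) and NF-kB (7.25%). A match is a description of letters, not a binding site.

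The responder library held 4376 cells after filtering, with a median of 10043 unique molecular identifiers (UMIs, 1 per captured RNA molecule), and the non-responder library held 2565 with a median of 11752. Monocyte/macrophage-like cells made up 95% of responder and 92.2% of non-responder cells (4159 and 2365 cells, 43171976 and 29506118 UMIs), and 13 of 14 macrophage markers were at 50 CPM (UMIs scaled to a common total) or more in each. Dendritic-like cells, led by Ccl17, Ccl22 and Ccr7, were 11 responder and 75 non-responder cells. The members were kept out of the clustering, so the states were not built from them. The libraries scarcely mixed: clusters 1 to 6 held most responder macrophages and clusters 0, 7, 8 and 9 most non-responder ones. The libraries shared 14 cell barcodes.

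The states were named from genes on fixed lists. Cluster 5 was Cxcl9-high (883 CPM), cluster 4 Ccl8-high (486 CPM), cluster 3 led by type I interferon genes, cluster 1 Arg1-high (843 CPM), and clusters 2 and 9 dividing. Cxcl9 was also at 794, 776, 731 and 725 CPM in clusters 4, 6, 3 and 2, so its level alone sets cluster 5 little apart. Clusters 0 and 7 were Fcrls-high (1083 and 419 CPM), and cluster 8 was Spp1-high, with 2881 CPM of Spp1 and 1951 CPM of Arg1. In cluster 8, Spp1 was at 494 CPM in the 32 responder cells and 3024 CPM in the 441 non-responder cells. Responder cells of cluster 11 held more, 1039 CPM, so the name rests mainly on the non-responder cells. Clusters 6 and 11 were monocyte-like, with 647 and 1037 CPM of Ly6c2. Cluster 11 was of mixed makeup: it held more Spp1 (4796 CPM), Arg1 (2441 CPM) and Ccl8 (727 CPM) than the clusters named for them, and the neutrophil genes S100a8 and S100a9 were among its leading genes. A level is given for a state only where a library had at least 20 of its cells, and for the kinds of cells within cluster 11 with fewer.

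Levels are CPM of the UMIs summed over the cells of a class or state, with exact Poisson 95% intervals in brackets that cover counting error only. A 3' count is not divided by gene length, so each member is compared with itself across cells. Differences between libraries are log2 ratios of CPM, responder over non-responder, with exact binomial 95% intervals. Where a count of members stands beside a share of all genes, higher or lower means past 2-fold. Elsewhere it means the direction of the ratio alone.

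Among the receptors that pair with Fcer1g, Clec4e, which binds mycobacterial glycolipid and a nuclear protein of dying cells, was well below its non-responder level in the responder library. Clec4e was at 24.4 CPM [23.0-26.0] in responder and 84.5 CPM [81.2-87.9] in non-responder macrophages, a log2 ratio of -1.79 [-1.89 to -1.69]. Clec4d, its partner in a surface complex, was at 63.5 CPM [61.1-65.9] in responder and 131.6 CPM [127.5-135.8] in non-responder macrophages, a log2 ratio of -1.05 [-1.12 to -0.98]. Both genes were thus lower in the responder library, Clec4e 3.46-fold and Clec4d 2.07-fold. Clec4n, which binds fungal mannans, was at 173.3 CPM [169.4-177.3] in responder and 288.4 CPM [282.3-294.6] in non-responder macrophages, a log2 ratio of -0.73 [-0.78 to -0.69]. Clec4b1 went the other way, with 33.6 CPM [31.9-35.4] in the responder and 10.1 CPM [9.02-11.3] in the non-responder library, a log2 ratio of 1.73 [1.55 to 1.91].

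Clec4d and Clec4e are also genes of neutrophils. The neutrophil marker list in the same macrophage class summed to 29.9 CPM in the responder and 126 CPM in the non-responder library, with 0 of 12 and 1 of 12 markers at 50 CPM or more and 10 and 6 under 1 CPM. Monocyte markers summed to 1104 CPM in the responder and 1342 CPM in the non-responder library. Without the monocyte-like clusters, left out after seeing the data, the log2 ratio was -2.36 for Clec4e, -1.20 for Clec4d and -1.08 for Clec4n, and 4 members in place of 3 were past 2-fold lower and 3 in place of 2 higher. The part of neutrophil RNA was not tested.

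The inhibitory receptors were higher in the responder library. Clec12a, which senses uric acid crystals, was at 360.0 CPM [354.3-365.7] in responder and 184.6 CPM [179.7-189.6] in non-responder macrophages, a log2 ratio of 0.96 [0.92 to 1.01], just short of 2-fold. Clec4a2 was at 421.7 CPM [415.6-427.9] in responder and 329.2 CPM [322.7-335.8] in non-responder macrophages, a log2 ratio of 0.36 [0.32 to 0.39], the smallest difference of the 9. Its relatives Clec4a1 and Clec4a3, which belong to the same DCIR group, differed more. Clec4a1 was at 370.6 CPM [364.9-376.4] in responder and 169.4 CPM [164.7-174.1] in non-responder macrophages, a log2 ratio of 1.13 [1.08 to 1.18]. Clec4a3 was at 257.2 CPM [252.4-262.0] in responder and 138.9 CPM [134.7-143.2] in non-responder macrophages, a log2 ratio of 0.89 [0.84 to 0.94].

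Mrc1 stood with Clec4e at the low end, and their intervals overlapped. Mrc1 was at 19.2 CPM [17.9-20.6] in responder and 67.9 CPM [65.0-71.0] in non-responder macrophages, a log2 ratio of -1.82 [-1.94 to -1.70], or 3.53-fold lower in the responder library.

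**Figure D1:**
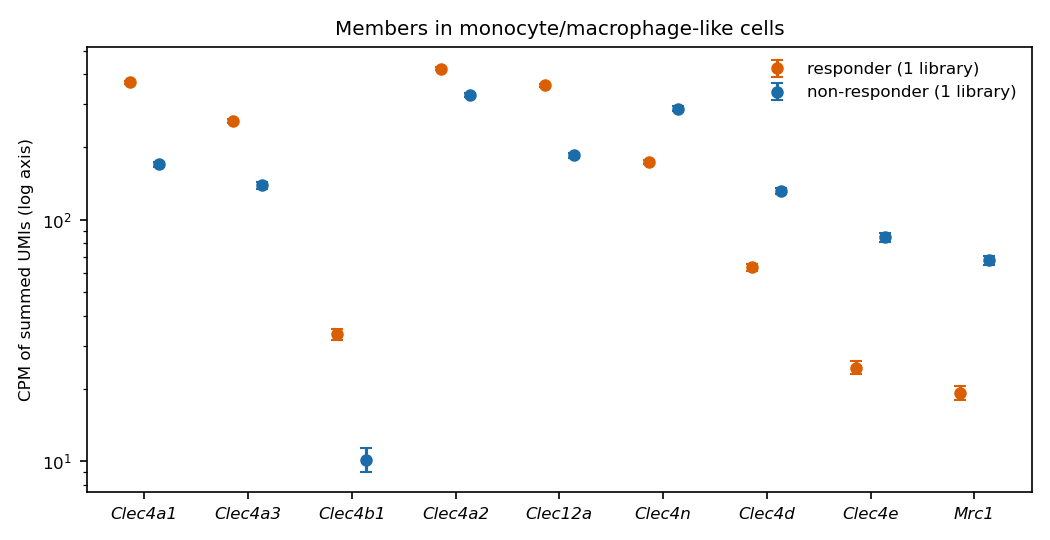
Level of each member in monocyte/macrophage-like cells, as CPM of summed UMIs on a log axis, with the responder library (4159 cells) left of the non-responder library (2365 cells) and bars for exact Poisson 95% intervals. Clec4a1, Clec4a3, Clec4b1, Clec4a2 and Clec12a sit higher in the responder library, and Clec4n, Clec4d, Clec4e and Mrc1 sit lower.

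Of the 9 measured members, 2 were past 2-fold higher in the responder library (Clec4a1 and Clec4b1), where 3.44% of 10863 genes with 50 or more counts were, and 3 were past 2-fold lower (Clec4d, Clec4e and Mrc1), where 4.39% were. Among genes with 1 or more counts the shares were 5.61% and 8.44%, and among those with 500 or more counts they were 2.64% and 2.37%. At 1.5-fold the counts were 4 higher and 4 lower, against 8.08% and 11.4% of genes, and at 3-fold they were 1 and 2, against 1.32% and 1.8%. The median log2 ratio was 0.36 over the members and -0.09 over all those genes. Scaling by TMM moved every ratio up by 0.12, which put 4 members past 2-fold higher (Clec4a3 and Clec12a with Clec4a1 and Clec4b1) and left 2 past 2-fold lower, with Clec4d at -0.93.

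Along the chromosome 6 stretch the members fell into neighbouring blocks. Clec4a1, Clec4a3, Clec4b1 and Clec4a2, the first in order, were all higher in the responder library, and Clec4n, Clec4d and Clec4e, at the far end, were all lower. In that last block the log2 ratio was -0.73, -1.05 and -1.79 in chromosomal order. With equal weight to the 5 shared clusters the values were -0.22, -0.06 and -0.96, so that order was not kept.

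**Figure D2:**
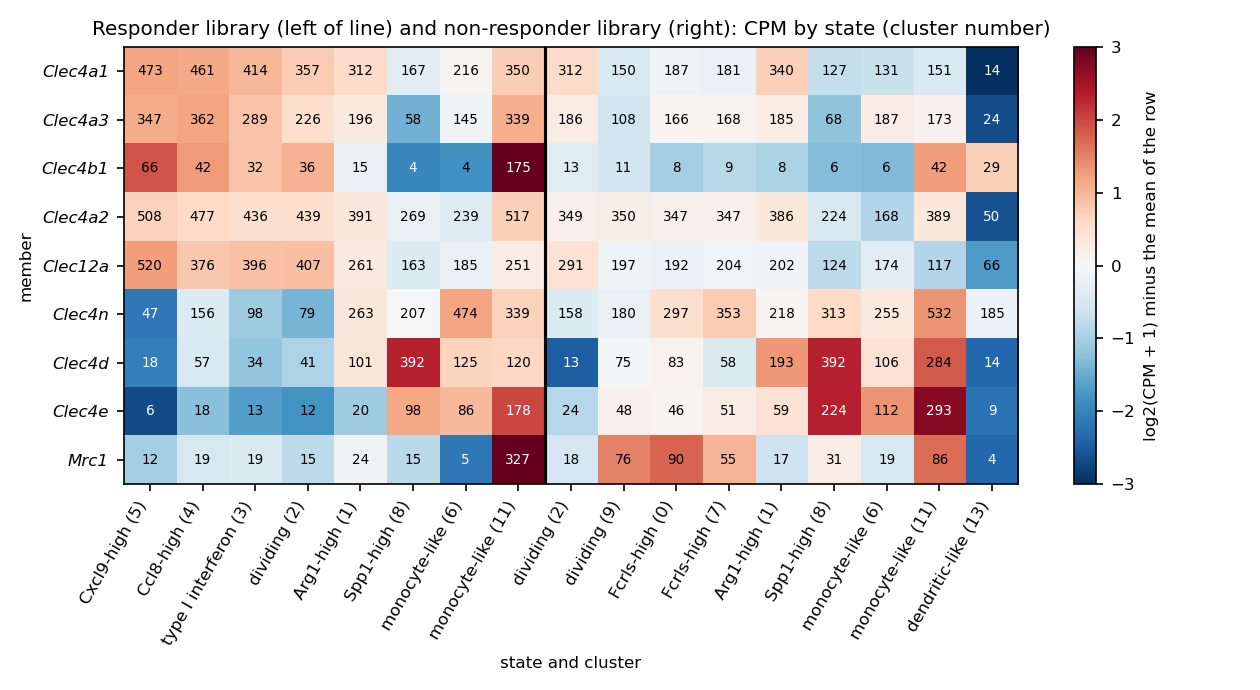
Level of each member (rows) in each state and cluster (columns) with at least 20 cells, responder states left of the black line and non-responder states right of it; numbers are CPM and colours are log2(CPM + 1) minus the row mean. Clec4d reads 392 in the Spp1-high column of both libraries, and Clec4e and Clec4n are pale or blue across the Cxcl9-high, type I interferon and dividing columns of the responder library.

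Across states, Clec4d was highest in Spp1-high macrophages in both libraries, at 392 CPM [322-473] in the 32 responder cells and 392 CPM [374-410] in the 441 non-responder cells. In the responder library it was next at 125 CPM in monocyte-like cluster 6, 120 CPM in cluster 11 and 101 CPM in Arg1-high cells, and lowest at 18.0 CPM [14.7-21.8] in Cxcl9-high cells. In the non-responder library it was next at 284 CPM in monocyte-like cluster 11 and 193 CPM in Arg1-high cells, and lay between 57.7 and 83.4 CPM in the Fcrls-high clusters. The responder intervals of clusters 6 and 11 overlapped, as did those of clusters 11 and 1, so the order of these neighbours was not resolved. The interval of cluster 6 [115-135] lay above that of cluster 1 [94.3-108.4]. Spp1 itself was at 494 CPM in the responder cells of cluster 8 and 3024 CPM in its non-responder cells. Spp1-high cells also led with Hilpda, a lipid droplet gene induced by low oxygen, at 396 CPM in the responder and 874 CPM in the non-responder library. They supplied 46.3% of the Clec4d counts of non-responder macrophages from 15.6% of the UMIs, against 3.94% from 0.638% in the responder library.

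Clec4e followed a like order but was highest in cluster 11, the monocyte-like cluster of mixed makeup, at 178 CPM [136-229] in the responder and 293 CPM [263-326] in the non-responder library. Spp1-high cells came next, at 98.0 CPM [64.6-142.6] in the responder and 224 CPM [210-238] in the non-responder library, and then monocyte-like cluster 6, at 86.4 and 112 CPM. In the responder library the intervals of cluster 11 and Spp1-high cells overlapped, as did those of Spp1-high cells and cluster 6. The order of these neighbours was thus not resolved there. Clec4e was close to absent from Cxcl9-high cells of the responder library, at 5.94 CPM [4.11-8.30]. In the responder library 41.4% of Clec4e counts came from cluster 6, which held 11.7% of the UMIs, while in the non-responder library 41.2% came from the Spp1-high cluster.

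Clec4n was highest in monocyte-like cells of both libraries, in cluster 6 of the responder library (474 CPM [456-494]) and in cluster 11 of the non-responder library (532 CPM [491-576]). It was lowest in Cxcl9-high cells of the responder library, at 46.6 CPM [41.2-52.6]. Unlike Clec4e, it stayed high in the Fcrls-high clusters of the non-responder library, at 297 and 353 CPM. Monocyte-like cluster 6 of that library, with 21 cells, was at 255 CPM [183-346], so its peak there rests on mixed cluster 11.

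In the responder library Clec12a had nearly the reverse order of Clec4n. It was highest there in Cxcl9-high cells, at 520 CPM [501-539], and lowest in Spp1-high cells, at 163 CPM [119-219]. In the non-responder library it was highest in dividing cluster 2, at 291 CPM [240-351], and lowest among macrophage states in cluster 11, at 117 CPM [97.8-138.4]. Fcrls-high cluster 7 came next to the highest for both genes there, so the reversal was only partial in that library. Clec4a1 and Clec4a3 were likewise lowest in Spp1-high cells, Clec4a1 at 167 CPM in the responder and 127 CPM in the non-responder library and Clec4a3 at 58.1 and 67.8 CPM. Clec4a1 peaked in Cxcl9-high cells of the responder library (473 CPM), where its interval overlapped that of Ccl8-high cells (461 CPM), and in Arg1-high cells of the non-responder library (340 CPM). Clec4a2 varied least, 2.16-fold across responder and 2.31-fold across non-responder macrophage states.

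Clec4b1 and Mrc1 had the widest range over macrophage states of the responder library, 48.3-fold and 63.7-fold. In the non-responder library theirs was 6.77-fold and 5.37-fold, against 29.8-fold for Clec4d. Clec4b1 was at 175 CPM [134-226] in cluster 11 and 66.0 CPM [59.5-73.0] in Cxcl9-high cells of the responder library, and at 3.63 CPM, a single count, in its Spp1-high cells. In the non-responder library it was at 42.2 CPM [31.1-55.9] in cluster 11 and 28.7 CPM [17.5-44.4] in dendritic-like cells, where its 20 counts came from 4 of 75 cells, and under 14 CPM in every macrophage state outside cluster 11. Mrc1 was at 327 CPM [269-394] in cluster 11 of the responder library and at most 24.0 CPM in its other macrophage states. In the non-responder library Mrc1 was spread over Fcrls-high cluster 0 (90.2 CPM [84.5-96.2]), cluster 11 (86.1 CPM [69.9-104.9]) and dividing cluster 9 (75.5 CPM [69.2-82.3]).

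The dendritic-like cluster could be read only in the non-responder library (75 cells), where 8 of the 9 members were lower than in macrophages and Clec4b1 was higher. Clec4n kept the largest part of its macrophage level there, at 185 CPM [155-220], or 64.3% of it. Clec12a was at 66.1 CPM [48.4-88.1] and Clec4a2 at 50.3 CPM [35-69.9]. Mrc1, at 4.31 CPM from 3 counts, and Clec4e, at 8.62 CPM from 6 counts, were near the limit of this depth. The 11 dendritic-like cells of the responder library gave at most 8 counts of any member.

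Cluster 11 held 3 kinds of cells, and several members differed widely among them. One was led by S100a8 and S100a9 with Ly6c2 at 1429 CPM (11 responder and 84 non-responder cells), and its 10 leading genes held 3 neutrophil markers and 1 monocyte marker. One was led by Ccl17, Cd209a and Mgl2 (22 and 36 cells), and its 10 leading genes held 3 dendritic markers and 0 of monocytes or macrophages, but it is counted in the macrophage class because whole clusters were named. The third was led by Folr2, Cbr2 and Lyve1, genes of perivascular and other resident macrophages (19 and 13 cells). Mrc1 was highest in the Folr2-led kind within this cluster but not confined to it. It was at 655 CPM [527-805] there in the responder and 555 CPM [437-696] in the non-responder library, with overlapping intervals. In the S100a8-led kind Mrc1 had 0 counts in the responder library, where 3 counts would be 49.5 CPM, and 8.75 CPM in the non-responder library. Clec4b1 was highest in the Ccl17-led kind, at 305 CPM [221-409] in the responder and 129 CPM [92.5-174.9] in the non-responder library. Clec4e was at 264 CPM [151-428] in the responder and 360 CPM [317-408] in the non-responder library in the S100a8-led kind, and at 50.9 and 59.2 CPM in the Folr2-led kind. Clec4n was at 824 CPM [612-1087] and 624 CPM [567-686] in the S100a8-led kind, at 187 CPM [123-272] and 531 CPM [454-618] in the Ccl17-led kind, and at 284 and 66.6 CPM in the Folr2-led kind. The Folr2-led cells of both libraries and the S100a8-led cells of the responder library number under 20, and the split was made after the levels of cluster 11 had been seen.

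**Figure D3:**
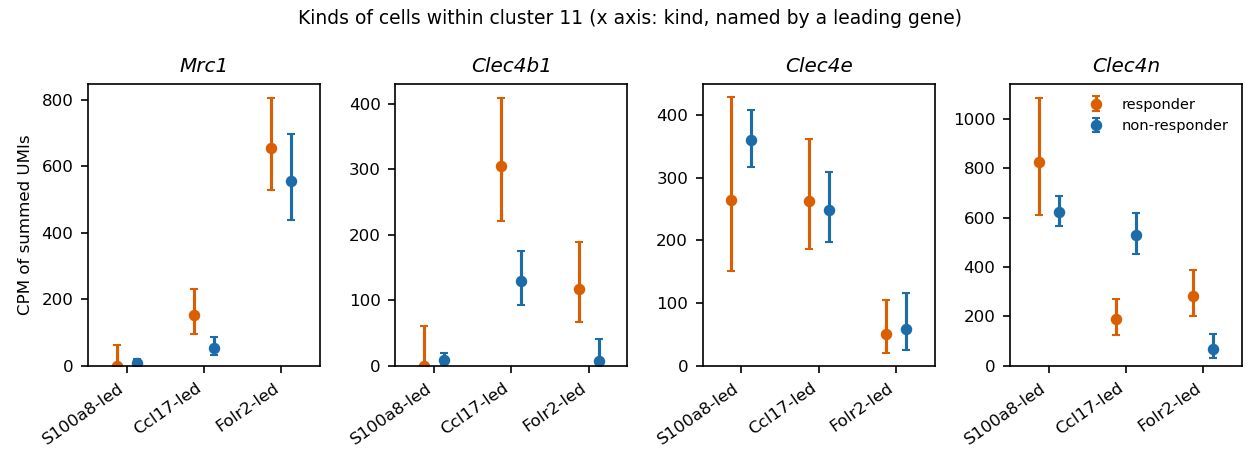
Level of Mrc1, Clec4b1, Clec4e and Clec4n in the 3 kinds of cells of cluster 11, as CPM of summed UMIs with exact Poisson 95% intervals, responder left of non-responder. Mrc1 stands out in the Folr2-led kind in both libraries (655 and 555 CPM), Clec4b1 in the Ccl17-led kind, and Clec4e is lowest in the Folr2-led kind.

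The libraries were compared within the 5 clusters with at least 20 cells of each, although 1 library held only 21 to 52 cells in each of them. Cluster 11 did not compare like with like. Its S100a8-led, Ccl17-led and Folr2-led kinds were 11, 22 and 19 responder cells and 84, 36 and 13 non-responder cells. Nor was Spp1-high cluster 8 alike in both libraries, with Spp1 at 494 CPM in its responder and 3024 CPM in its non-responder cells. Clec4e was lower in the responder library in 5 of 5 clusters, by -0.38 to -1.53 on the log2 scale, with intervals below 0 in 3. Clec12a and Clec4a2 were higher in 5 of 5, by 0.09 to 1.1 and by 0.02 to 0.51, with intervals above 0 in 2 each. Clec4a1 was higher in 4 of 5, and Clec4a3 and Clec4b1 in 3 of 5 each. Clec4e, Clec12a and Clec4a2 thus kept the direction of the whole class in all 5 shared clusters. For each of these members, cluster 11 was among the clusters with an interval clear of 0.

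Clec4d did not. It was at 392 CPM in Spp1-high cells of both libraries, a log2 ratio of 0.00 [-0.29 to 0.28], higher in the responder library in dividing cluster 2 (40.6 and 13.1 CPM, 1.63 [0.40 to 3.26], with 5 counts in the non-responder library) and lower in Arg1-high cells (101 and 193 CPM, -0.93 [-1.36 to -0.47]) and in cluster 11 (120 and 284 CPM, -1.24 [-1.75 to -0.77]). With equal weight to the 5 clusters its mean log2 ratio was -0.06, and without the Spp1-high cluster the ratio of the class was -0.45. Mrc1 was 1.93 [1.52 to 2.33] in cluster 11, where the Folr2-led cells were 19 of 52 responder and 13 of 133 non-responder cells, and its equal-weight mean was -0.16. That mean leaves out clusters 0, 7 and 9, which held most Mrc1 counts of the non-responder library. The equal-weight mean was 0.59 for Clec4b1, 0.49 for Clec12a, 0.48 for Clec4a1, 0.31 for Clec4a2, 0.15 for Clec4a3 and -0.22 for Clec4n. Clec4n was 0.89 [0.45 to 1.38] in monocyte-like cluster 6 and -0.999 [-1.38 to -0.59] in dividing cluster 2.

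In cluster 11, 4 of 9 members were higher (5.89% of genes) and 1 lower (7.08%). In the Spp1-high cluster 0 of 8 were higher (3.71%) and 2 lower (10.5%), which were Clec4e and Mrc1. The Mrc1 value there rests on 4 responder counts, and its interval included 0 (-1.09 [-2.99 to 0.30]). Over the 5 shared clusters the Mrc1 interval lay below 0 in 0 and above 0 in 1, cluster 11. In cluster 2, 2 of 9 were higher (10.9%) and 0 lower (5.26%), in cluster 1, 0 of 9 were higher (9.44%) and 1 lower (4.64%), and in cluster 6, 0 of 7 were higher (11.7%) or lower (7.9%).

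**Figure D4:**
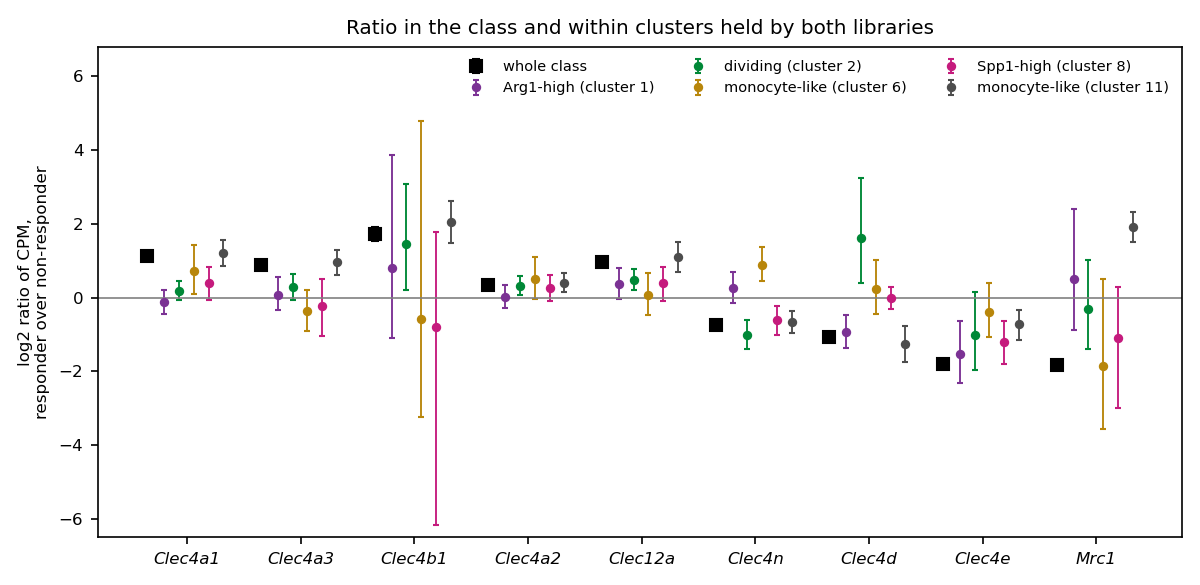
Log2 ratio of CPM, responder over non-responder, of each member in the whole monocyte/macrophage-like class (black squares) and within the 5 clusters held by both libraries (coloured points), with exact binomial 95% intervals. Clec4e lies below 0 in all 5 clusters, while Clec4d runs between -1.24 and 1.63.

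The share of cells with a UMI gave the same directions. After each cell was thinned to 3000 UMIs, which left out 89 responder and 2 non-responder macrophages, the Clec4e share was 6.29% [5.56-7.08] in responder macrophages, against 17.1% [15.6-18.7] in non-responder ones. Clec4d was seen in 14.8% [13.7-15.9] and 25.9% [24.1-27.7] of them, and Mrc1 in 4.94% [4.29-5.65] and 15.4% [13.9-16.9]. The Clec12a share was 61.0% [59.5-62.5] in responder macrophages, against 37.1% [35.2-39.1] in non-responder ones, and Clec4a1 in 59.0% [57.4-60.5] and 35.1% [33.2-37.1]. Unthinned, Clec4d was seen in 31.9% and 49.7%, Mrc1 in 14.4% and 41.6%, and Clec4a1 in 87.7% and 67.8% of responder and non-responder cells, at median depths of 10071 and 11945 UMIs.

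T/NK-like cells, which should lack these receptors, served as the background. At 3000 UMIs, a UMI of Clec4d or Mrc1 was seen in none of the T/NK-like cells (0 of 82 and 0 of 89 in the responder and the non-responder library), where 3 cells would be 3.66% and 3.37% and the exact upper limits are 4.40% and 4.06%. Clec4e was seen in 0% and 3.37%, and Clec4a2 in 11% and 2.25% of them, at unthinned median depths of 3718 and 5992 UMIs. The macrophage shares of all 9 members lay above these values. For Clec4b1 the macrophage shares, 7.99% for the responder and 2.71% for the non-responder library, lay within the T/NK-like intervals, which reach 8.53% and 6.10%. Per UMI, the T/NK-like sums held Clec4d at 3.70% and 4.33% of its macrophage level and Clec4e at 9.61% and 13.5%, from 8 or fewer counts each, while the macrophage gene C1qa stood at 5.46% and 3.06%, in the responder and the non-responder library.

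**Figure D5:**
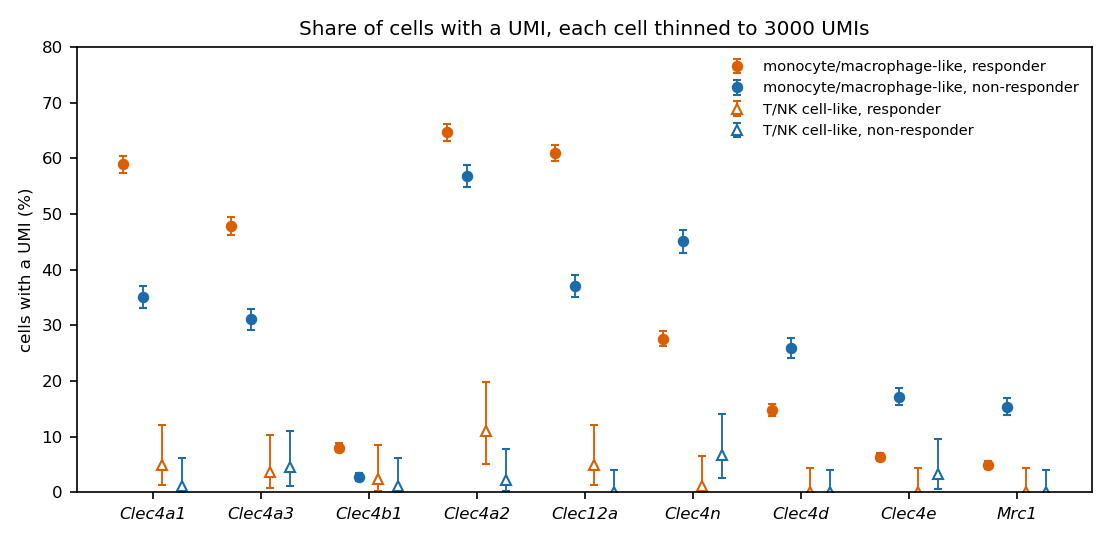
Percent of cells with a UMI of each member after thinning each cell to 3000 UMIs, in monocyte/macrophage-like cells (filled circles) and T/NK-like cells (open triangles), responder left of non-responder in each pair, with Clopper-Pearson 95% intervals. Macrophage shares of Clec4d, Clec4e, Clec4n and Mrc1 are lower in the responder library, and T/NK-like shares stay at or under 11%.

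Cells with a UMI of Nos2, the inducible nitric oxide synthase of inflammatory macrophages, were compared with the rest of the class within each library. Clec4d was higher in them, by 1.20 [1.06 to 1.33] on the log2 scale among 439 responder and by 1.52 [1.39 to 1.64] among 136 non-responder cells. Clec4e was higher by 1.42 [1.21 to 1.62] and 1.48 [1.32 to 1.64], and Clec4n by 1.1 [1.02 to 1.18] and 0.30 [0.18 to 0.42]. The other six members were lower in Nos2-bearing cells of both libraries, with Clec12a at -0.43 and -0.24 and Mrc1 at -0.72 and -0.99. Cells of both kinds came from the same library, so these differences do not rest on the comparison of libraries, though detection of Nos2 depends on depth. Nos2 was also unevenly spread over the states. It was at 69.0 CPM in Spp1-high, 53.2 CPM in monocyte-like cluster 6 and 2.10 CPM in Cxcl9-high cells of the responder library, and at 40.1 CPM in Spp1-high cells of the non-responder library and at most 12.6 CPM in its other states, so the cells compared also differ in state.

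Likeness of pattern was measured as Pearson's r of log2(CPM + 1) across 17 sums, 1 for each state and library, over 3385 genes that reached 50 CPM in at least 1 sum. The sums share libraries, so r is a description. They include the dendritic-like cells of the non-responder library, where Clec4a1 (14.4 CPM) and Fcer1g (1683 CPM) were lowest of all sums. The part of that sum in the r values was not tested. Clec4d and Clec4e ran together (r = 0.84), as did Clec4e and Clec4n (0.81), Clec4a1 and Clec4a2 (0.93) and Clec4a1 and Clec12a (0.89), while Clec4n and Clec12a ran opposite (-0.65). The non-member genes most like Clec4d were Ninj1 (0.94), Cstb (0.93) and Lgals3 (0.92), and those most like Clec4e were Lilrb4a (0.93), Cxcl2 (0.93) and Slc7a11 (0.91). Those most like Clec12a were Aif1 (0.93), Slamf9 (0.92) and Nudt19 (0.89), and those most like Clec4a1 were Laptm4a (0.95), Fcer1g (0.94) and Slc11a1 (0.94). For Mrc1 they were Tmed2 (0.91), Wdr26 (0.90) and Gas6 (0.89); with an offset of 10 CPM in place of 1, only Wdr26 remained among its first 3. Over single thinned macrophages the highest r between members was 0.254, of Clec4d and Clec4e in the non-responder library, which is too weak to read in sparse counts.

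The lists of related genes were set against the same background, in which 3.44% of genes were past 2-fold higher and 4.39% lower. Of 27 measured genes of Syk and CARD9 signalling, 0 were past 2-fold in either direction, 18 were higher and 9 lower in the responder library, and the median log2 ratio was 0.14. A count of 0 among so few genes is near the background. Fcer1g, the shared adaptor chain, was at 7698 CPM in responder and 5589 CPM in non-responder macrophages (0.46). Card9, the adaptor downstream of Syk, had the largest difference, 3.91 and 7.35 CPM (-0.91 [-1.21 to -0.61]), followed by the linker Blnk, 68.7 and 109.8 CPM (-0.68), the paracaspase Malt1, 3.45 and 5.05 CPM (-0.55), and the transcription factor Nfatc2, 12.2 and 8.41 CPM (0.54). So the receptor genes Clec4d and Clec4e were lower in the responder library while Fcer1g was not.

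Of 7 phosphatases and adaptors of inhibitory receptors, 0 were past 2-fold higher and 1 lower, with a median of 0.36. Ptpn6, the phosphatase that Clec4a2 and Clec12a recruit, was at 393 CPM in responder and 279 CPM in non-responder macrophages (0.49 [0.46 to 0.53]). Across states it was lowest in Spp1-high cells, at 109 CPM in the responder and 108 CPM in the non-responder library, the state where Clec12a was lowest or next to lowest. The adaptor Dok2 was lower in the responder library, 25.4 and 51.4 CPM (-1.02), and Inpp5b (20.4 and 11.5 CPM, 0.82) and Dok3 (154 and 117 CPM, 0.39) were higher.

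Of 12 measured response genes of the Syk and CARD9 route, 1 was past 2-fold higher and 4 lower, with a median of -0.36. The chemokine Cxcl1 was at 7.39 CPM in responder and 36.8 CPM in non-responder macrophages (-2.32), the early response factor Egr1 at 28.8 and 123.5 CPM (-2.10) and Egr2 at 2.55 and 6.91 CPM (-1.44). Il10, an inhibitory cytokine of the same list, was higher in the responder library, 8.64 and 1.56 CPM (2.47 [2.03 to 2.95]). These genes answer to many other signals as well.

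Genes that often go with Mrc1 in alternatively activated macrophages were mostly lower in the responder library: of 19 measured, 10 were past 2-fold lower and 2 higher, with a median of -1.24. The chemokine Ccl24 was at 0.162 CPM in responder and 7.63 CPM in non-responder macrophages (-5.56), Ccl17 at 0.695 and 10.2 CPM (-3.87), Cbr2 at 2.96 and 27.7 CPM (-3.22) and Retnla at 11.3 and 96.9 CPM (-3.10). The responder value of Ccl24 rests on 7 counts. Ccl17 is also on the dendritic marker list, and it led a kind of cells in cluster 11 that is counted in this class. The part of those cells in its value was not tested.

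Of 11 measured transcription factors of these receptor genes, 3 were past 2-fold higher and 1 lower, with a median of 0.33. Spi1, which encodes PU.1, was at 141 CPM in responder and 47.5 CPM in non-responder macrophages (1.57), and Nr1h3, the liver X receptor alpha, was at 31.3 and 11.7 CPM (1.42). Tfec, of the Mitf family, was lower, 3.54 and 7.15 CPM (-1.01).

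The other genes with a C-type lectin domain had no common direction. Of 38 listed, 16 were measured, 8 higher and 8 lower, with 3 past 2-fold higher, 2 lower and a median of 0.01. Clec9a, the receptor of cross-presenting dendritic cells, was at 3.89 CPM in responder and 0.237 CPM in non-responder macrophages (4.04), and the NK receptor genes Klrk1 and Klrb1b were at 79.7 and 9.90 CPM (3.01) and at 62.6 and 21.6 CPM (1.54). Mgl2, a galactose-type lectin of macrophages, was at 3.85 and 15.7 CPM (-2.03). In the same class dendritic markers summed to 1862 CPM in the responder and 494 CPM in the non-responder library, with 1 of 18 at 50 CPM or more in each and 10 and 11 under 1 CPM. NK markers, Klrk1 among them, summed to 95.2 and 18.1 CPM, with 1 and 0 of 10 at 50 CPM or more, and the part of other cell types in these values was not tested.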

How the data were processed

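Per the labels' protocols, CD45+ cells were captured with the 10x Genomics Chromium Single Cell 3' v3 kit. The submitters' processing notes name Cell Ranger 1.1.0 and the builds mm10 and GRCm38; no source used here gives the annotation release or how cells were called. The deposited matrices are filtered and hold UMI counts for each gene and barcode (4425 responder and 2580 non-responder barcodes, 45866561 and 32032569 UMIs).

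Filters removed 4 barcodes (under 500 genes) and 61 (mitochondrial share over 10%). Scrublet marked 3 of 7005 barcodes, so doublets were in effect kept. Cells were scaled to 10000 counts, log-transformed and clustered jointly with scanpy 1.11.5 (2000 variable genes without the members, 30 components, 15 neighbours, Leiden resolution 1.0). A marker counted at 50 CPM or more with a UMI in 10% of a cluster's cells; 75% of macrophage markers made a cluster monocyte/macrophage-like, 50% of T or NK markers T/NK-like, and both mixed. Dendritic-like and fibroblast-like clusters needed 3 markers among their 10 leading genes. Among 10 leading genes against all clusters, clusters 4 and 5 held 0 markers of their own class. Cluster 4 held the dendritic marker Ccl5, and cluster 5 the dendritic marker Xcr1 and the B cell marker Cd79b. Against clusters outside the class, neither held a marker of another class.

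With 1 library per group no test was made. Ratios and intervals were computed with scipy 1.17.1 and tested on simulated data. The named genes are all members, the 4 genes of each list with the largest ratios and the 3 genes most like each of 5 members; Fcer1g is also given, and was added after its values were seen. The rule names 1 further gene that is not reported here. The members and lists were chosen with earlier results of these data known.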

Additional observations from a re-analysis of the deposited data

Results flagged for a closer look

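Clec4d and Clec4n differed between the libraries in opposite directions in different states, each with intervals that left out 0. The log2 ratio of Clec4d, responder over non-responder, was 1.63 in dividing cluster 2, against -0.93 in Arg1-high cluster 1 and -1.24 in monocyte-like cluster 11. That of Clec4n was 0.89 in monocyte-like cluster 6, against -0.999 in dividing cluster 2, -0.60 in Spp1-high cluster 8 and -0.65 in cluster 11. With 1 library per group the differences between states were not tested, and 1 library held 52 cells or fewer in each of these clusters.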

How the results depend on the processing

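Each of the 9 members kept its direction in 17 of 17 alternatives, and none reversed. The count past 2-fold higher, 2, was 4 under TMM, under median-of-ratios scaling and at 1.5-fold, 1 at 3-fold, 1 without the clusters with more markers of another class (4 and 5) and 0 with equal weight to the shared clusters. The count past 2-fold lower, 3, was 0 with that equal weight. The median log2 ratio of the members, 0.36, was 0.48 under TMM, 0.47 under median-of-ratios scaling, 0.15 with equal weight, 0.44 without the monocyte-like clusters, 0.26 without clusters 4 and 5 and 0.28 without cluster 8. The state with the highest level kept its name in 3 of 18 pairs of member and library at resolution 0.5. It did so in 5 at resolution 2.0 and in 7 with the libraries clustered apart. State names and levels both changed between clusterings. With the libraries clustered apart, Clec4d of the responder library was highest in Arg1-high cells at 166 CPM, in place of Spp1-high cells at 392 CPM. The order of states is thus tied to the clustering used. Alternatives that leave out clusters were added after seeing the data. No paired analysis was possible because each group is 1 library. Depth limits Clec4b1 and Mrc1 most, with as few as 1 and 3 counts in a shared cluster.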
